A study of Homo sapiens with 5 samples.

Results

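The replication-dependent histone genes of the large cluster on chromosome 6 and of the smaller cluster on chromosome 1 were examined in SNU638 cells, a human gastric cancer cell line. A gene was included when GENCODE release 44 lists it as protein-coding between 26 and 28 Mb of chromosome 6 or between 149.7 and 150.0 Mb of chromosome 1 (GRCh38) under a symbol that starts with H1-, H2AC, H2BC, H3C or H4C. This choice used names and positions and no measured value. It gave 64 genes out of the 19689 that have a protein-coding transcript. They comprised 6 H1, 15 H2A, 16 H2B, 13 H3 and 14 H4 genes, with 32 below 27 Mb of chromosome 6, 21 above it and 11 on chromosome 1.

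The study mapped 3 proteins by CUT&Tag, in which an antibody directs a transposase to cut and tag the DNA around its target. The libraries were 1 with anti-ACTL6A, 1 with anti-BRG1, 1 with anti-NRF2 and 2 with IgG, a non-specific antibody that serves as the control. ACTL6A is an actin-like subunit and BRG1 the ATPase of the SWI/SNF chromatin remodelling complex, and NRF2 is the transcription factor of the oxidative stress response. All cells were untreated SNU638 cells of 1 line, and the labels give no stage of the cell cycle. With no replicate of any antibody, the lists could not be tested against each other, and the differences below carry no p-value. The lists hold peaks and no expression values, so the identity of the cells was not checked.

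Replication-dependent histone genes supply the histones that package new DNA, and they are transcribed mainly in S phase. They are short, have no introns as a rule, and occur in many near-identical copies. Their mRNAs end in a conserved stem-loop in place of a poly(A) tail, and the genes gather in nuclear histone locus bodies around the protein NPAT. The H2A and H2B genes often lie head to head and share a promoter, H3 and H4 form the core of the nucleosome, and H1 binds the linker DNA between nucleosomes.

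The printed stretches show the 200 bases before the transcription start site (TSS) of a gene with the highest BRG1 and NRF2 peaks and of 1 gene with no peak. They were read from GRCh38 on the strand of the gene, 5′ to 3′. The pair H2BC11 and H2AC11 had the highest BRG1 and NRF2 peaks, and the H2AC11 stretch is chr6:27132843-27133042 on the plus strand. H1-6, a linker histone gene of the testis, had no peak in any list, and its stretch is chr6:26108136-26108335 on the minus strand. Capitals mark matches on either strand to TATAA (the TATA box), CCAAT (the CCAAT box), ATTTGCAT (the octamer of histone promoters) or TGACNNNGC (the core of the antioxidant response element, ARE, to which NRF2 binds).
H2AC11: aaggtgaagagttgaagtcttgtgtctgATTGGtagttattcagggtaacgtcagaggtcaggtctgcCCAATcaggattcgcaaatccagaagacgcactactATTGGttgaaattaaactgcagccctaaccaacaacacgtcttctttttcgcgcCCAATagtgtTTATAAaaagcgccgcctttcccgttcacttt
H1-6: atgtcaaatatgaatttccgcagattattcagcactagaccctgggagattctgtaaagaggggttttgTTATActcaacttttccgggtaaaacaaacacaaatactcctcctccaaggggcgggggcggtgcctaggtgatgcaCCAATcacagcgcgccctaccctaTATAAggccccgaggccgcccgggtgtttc

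Both stretches hold a TATA box close to the TSS and a CCAAT box, including that of H1-6. In the window from 250 bases before to 50 after the TSS, TATAA was matched in 59 of the 64 genes (92.2%) and in 16.6% of the windows of all 19689 genes. CCAAT was matched in 55 of the 64 genes (85.9%, against 36.1% of all genes). The octamer ATTTGCAT was matched in 11 of 15 H2A and 13 of 16 H2B windows and in 0 of the H1, H3 and H4 windows, with 1.62% among all genes. The window of a gene in a head-to-head pair covers most of its partner's promoter, so such pairs are not independent. The median GC content was 43.3% (range 36.3% to 58.0%), against a median of 63.7% over all genes.

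The stem-loop that ends these mRNAs was searched as a stem of 6 base pairs with a loop of 4 bases within 200 bases of the stop codon. The search also required the stem to start with GG and the loop with TT, so all forms found share these bases by design. Such a stem-loop was found in 59 of the 64 genes, starting 23 to 68 bases (median 36) after the stop codon. It had 5 forms that differ in the stem and in the last base of the loop. The forms are printed since they mark a gene as replication-dependent, with the paired bases of the stem in capitals and the loop in lower case.
form in 36 genes: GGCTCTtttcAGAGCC
form in 9 genes: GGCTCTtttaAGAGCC
form in 1 gene: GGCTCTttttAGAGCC
form in 9 H4 genes: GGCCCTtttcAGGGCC
form in 4 H4 genes: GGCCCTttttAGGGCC

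The forms that start with GGCC were found in 13 of 14 H4 genes and in no gene of another type. No stem-loop was found for H2AC11, H2AC15, H2BC10, H3C6 and H4C13 by this search, which covered every annotated stop codon of each gene. H2AC11 and H2AC15 among these had peaks of all 3 antibodies.

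A peak was assigned to a gene when it lay within 1 kb of the TSS of any of its protein-coding transcripts. NRF2 peaks were at 48 of the 64 histone genes (75.0%), against 28.1% of all genes. BRG1 peaks were at 53 (82.8%, against 63.5%), and ACTL6A peaks were at 19 (29.7%, against 38.5%). The histone genes thus stood above the share of all genes for NRF2 and BRG1 and below it for ACTL6A. Neither control list had a peak at any of them: IgG 1 had 0 of 64 (0% of all genes) and IgG 2 had 0 of 64 (0.152% of all genes). All 64 genes were counted and many share peaks, so no interval is given for these shares.

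The lists differ in length, with 23917 ACTL6A, 48793 BRG1, 9045 NRF2, 11 IgG 1 and 1746 IgG 2 peaks. The fewest fragments expected at any peak reflect the background that the caller used. They were 0.182 in ACTL6A, 0.271 in BRG1, 1.48 in NRF2, 0.0734 in IgG 1 and 1.23 in IgG 2. Neither IgG list held a peak in either window. With each antibody list reduced to its highest 5000 peaks, NRF2 peaks were at 33 histone genes (51.6%, against 18.5% of all genes), BRG1 peaks at 5 (7.81%, against 19.0%) and ACTL6A peaks at 1 (1.56%, against 19.4%). At that equal length NRF2 alone stayed above the share of all genes. The high BRG1 share in the whole list therefore came from peaks outside its highest 5000.

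**Figure D1:**
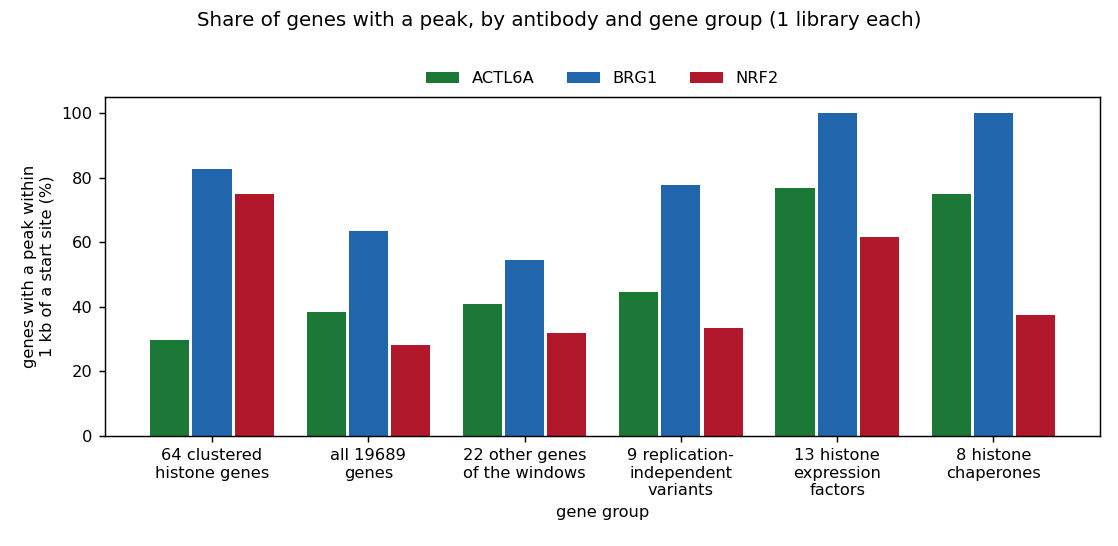
Share of genes with a peak within 1 kb of a TSS (y axis, percent) in 6 gene groups (x axis), with a bar for each antibody and 1 library behind each bar. In the 64 clustered histone genes the NRF2 bar reaches 75.0% and the ACTL6A bar 29.7%, whereas over all 19689 genes the ACTL6A bar (38.5%) is the higher of these.

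The lists overlapped at the histone genes in a way unlike that over all genes. BRG1 and NRF2 peaks without an ACTL6A peak were at 27 histone genes (42.2%, against 5.60% of all genes). At H3C1 and H3C7 among these, an ACTL6A peak lay just past the 1 kb limit. Peaks of all 3 antibodies were at 18 (28.1%, against 22.1%), and BRG1 alone was at 7 (10.9%, against 21.1%). NRF2 alone was at 3 (4.69%, against 0.361%), a count that includes a shared peak and a gene with the other peaks just past 1 kb. ACTL6A with BRG1 but without NRF2, a combination of 14.7% of all genes, was at 1 histone gene, H2BC9 (1.56%). No antibody had a peak at 8 histone genes (12.5%, against 34.4%). ACTL6A without BRG1 was at 0 (against 1.66%), so every histone gene with an ACTL6A peak also had a BRG1 peak.

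**Figure D2:**
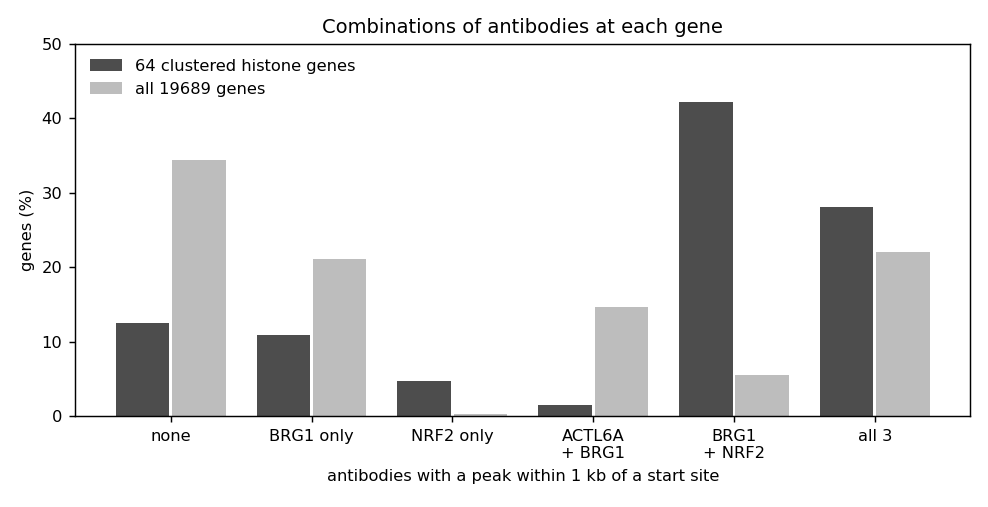
Share of genes (y axis, percent) with each combination of antibodies at a TSS (x axis) for the 64 clustered histone genes (dark bars) and all 19689 genes (light bars). The dark bar is the taller for BRG1 with NRF2 (42.2% against 5.60%), and the light bar is the taller for ACTL6A with BRG1 (14.7% against 1.56%).

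The 18 genes with peaks of all 3 antibodies were H1-2, H2AC11, H2AC12, H2AC13, H2AC15, H2AC18, H2AC19, H2BC11, H2BC12, H2BC13, H2BC15, H4C1, H4C3, H4C4, H4C8, H4C11, H4C14 and H4C15. They held no H3 gene. The 8 genes without any peak within 1 kb were H1-1, H1-5, H1-6, H2AC21, H3C3, H3C10, H3C12 and H4C7, of which 3 encode H1 and 3 encode H3. NRF2 alone was at H1-3, H2BC21 and H2AC20. The peak of H2BC21 and H2AC20 is the same, and it ended just over 1 kb from the start of H2AC21, where it was not counted. At H1-3 the NRF2 peak overlapped BRG1 and ACTL6A peaks that lay just over 1 kb from the start and so were not counted. BRG1 alone was at H2AC16, H2BC3, H3C4, H3C11, H4C2, H4C6 and H4C13.

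**Figure D3:**
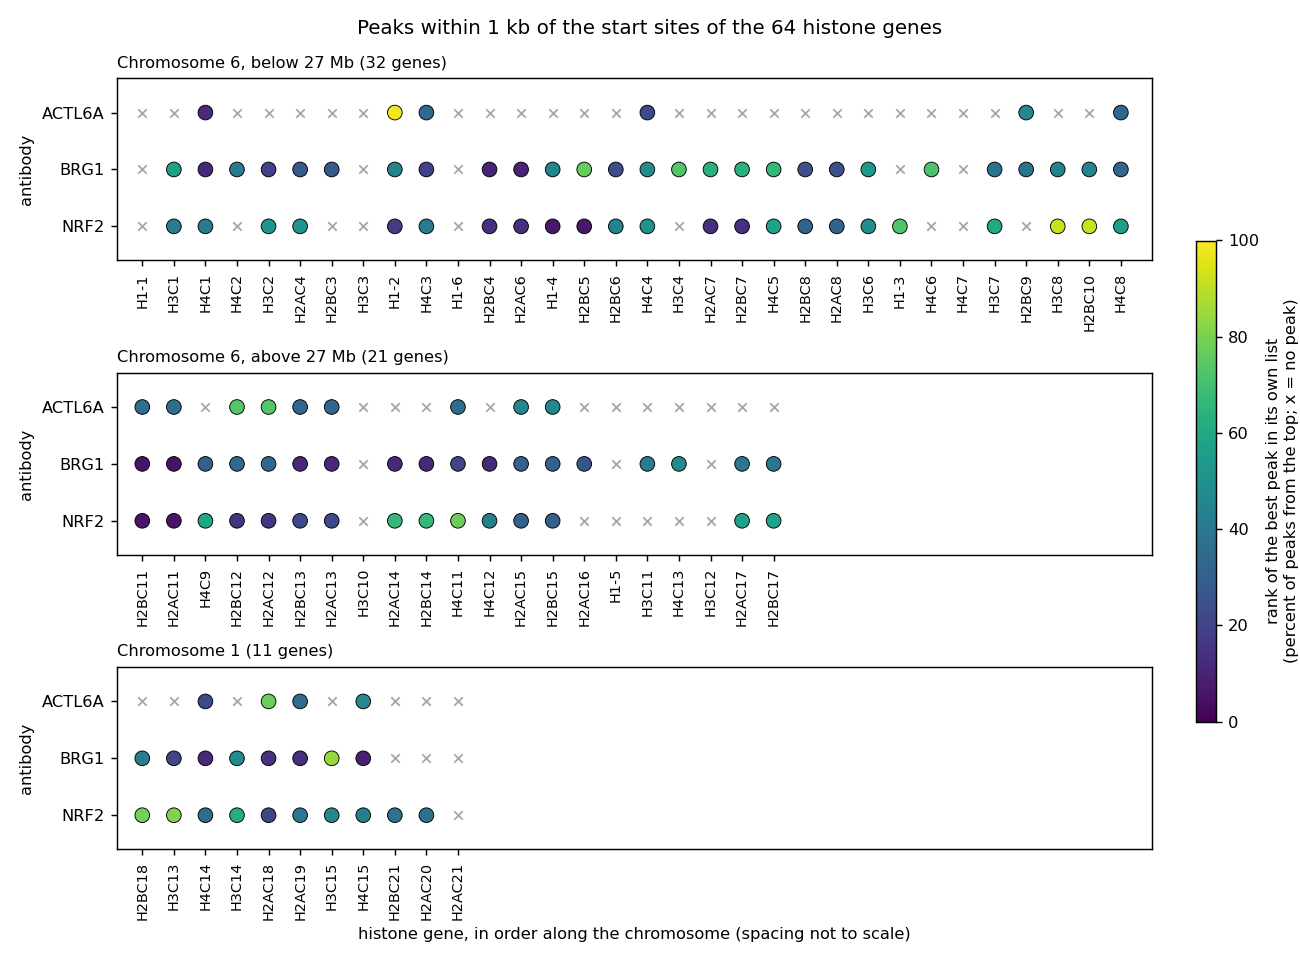
The 64 histone genes in their order along each cluster (x axis, spacing not to scale), with a circle for a peak of each antibody (y axis) and a cross for none. Colour gives the rank of the best peak as a percentage of its own list from the top (0 is the highest peak). Crosses dominate the ACTL6A rows (19 circles), while the BRG1 and NRF2 rows hold 53 and 48 circles, and H2BC11 with H2AC11 has the darkest circles in both.

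Among the 15 H2A genes, 6 had an ACTL6A, 13 a BRG1 and 13 an NRF2 peak. Among the 16 H2B genes these numbers were 5, 15 and 14, and no H2B gene lacked peaks of all antibodies. Among the 14 H4 genes they were 7, 13 and 10, and peaks of all 3 antibodies were at 7 of 14 H4, 6 of 15 H2A and 4 of 16 H2B genes. Within 1 kb, 0 of the 13 H3 genes had an ACTL6A peak, with BRG1 at 10 and NRF2 at 8. The ACTL6A peaks of H4C1 and H2BC9 lay just over 1 kb from the starts of H3C1 and H3C7. Wider peaks that overlapped them, of NRF2 at H3C1 and of BRG1 at H3C7, were counted. H1 genes had the fewest BRG1 peaks, at 2 of 6, with ACTL6A at 1 and NRF2 at 3, of which H1-3 and H1-4 had the NRF2 summit over 1 kb from the TSS. The chromosome 1 genes had NRF2 peaks at 10 of 11 and BRG1 peaks at 8, and ACTL6A peaks were at 6 of 32 genes below 27 Mb of chromosome 6 and at 9 of 21 above it. These groups are small and share peaks, so the differences between them are given as counts.

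**Figure D4:**
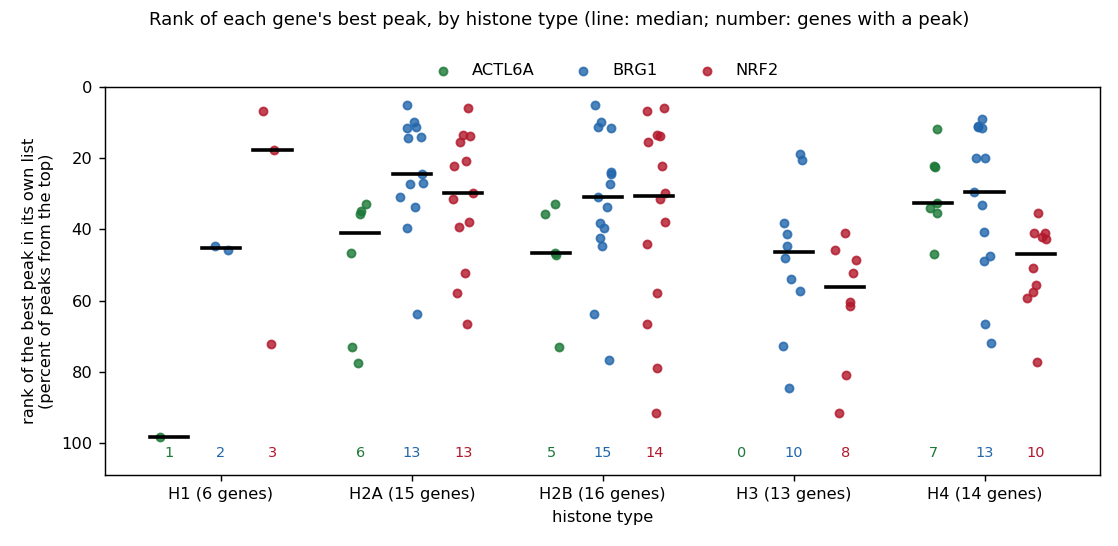
Rank of each gene's best peak in its own list (y axis, percent of peaks from the top, with the highest peaks uppermost) by histone type (x axis), where a point is a gene, a line is the median and the number below is the count of genes with a peak. H3 has no ACTL6A point, and the single H1 gene with an ACTL6A peak lies at 98.3%.

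The strongest peaks lay at the head-to-head pair H2BC11 (ENSG00000124635) and H2AC11 (ENSG00000196787), which encode an H2B and an H2A protein and start 248 bp apart. A single BRG1 peak, chr6:27132461-27133242, covered both starts. It held 46 fragments at its summit against 2.87 expected (12.1-fold enrichment, −log10 q 35.0) and ranked 2437, in the highest 4.99% of its list. The NRF2 peak there, chr6:27132377-27133242, held 50 fragments against 6.09 expected (7.19-fold enrichment, −log10 q 24.4), in the highest 5.74%. The ACTL6A peak, chr6:27132801-27133121, held 8 fragments against 0.659 expected, with a −log10 q of 4.06, in the highest 35.6%. The pair was thus the highest of all 64 genes in the BRG1 and NRF2 lists and near the middle of the histone genes in the ACTL6A list. Its intergenic stretch, printed above for H2AC11, holds 4 CCAAT matches. On the H2BC11 side, the octamer starts 47 bases and the ARE core 19 bases before the TSS of that gene.

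H4C1 (ENSG00000278637), an H4 gene, had the highest ACTL6A peak, chr6:26021457-26021946, with 14 fragments against 0.846 expected. It was enriched 8.13-fold at a −log10 q of 9.60, in the highest 11.9% of the ACTL6A list. The BRG1 peak at H4C1 held 35 fragments against 2.94 expected (−log10 q 22.3, highest 11.3%). The NRF2 peak held 23 fragments against 4.71 expected (−log10 q 6.09, highest 41.0%). The BRG1 and ACTL6A peaks ended at the same base, and their summits lay 114 and 173 bp after the TSS. H4C1 was the only histone gene that kept an ACTL6A peak among the highest 5000 of that list.

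Among the other H4 genes, H4C15 on chromosome 1 had the highest BRG1 peak of the type (38 fragments against 2.90 expected, −log10 q 25.7, highest 8.97%). H4C14 had the highest NRF2 peak of the type (24 fragments against 4.66 expected, −log10 q 6.83, highest 35.4%). These genes are copies of one another: every 150-base stretch (the read length) of their surroundings, from 1 kb before to 1 kb after the TSS, occurs at both. The authors state that uniquely mapped reads were used, yet 34 and 38 BRG1 fragments were recovered at H4C14 and H4C15, and how reads of such copies were placed is not given in the sources used here. The peaks of these copies cannot be told apart. The same applies to H3C14 (100% of stretches shared), H3C15 (99.8%), H2AC18 (87.1%) and H2AC19 (87.0%), whose copies also lie on chromosome 1. The 4 chromosome 1 genes with an ACTL6A peak were all among these copies. In 51 genes no such stretch was shared with another gene of the clusters. Of these 51, 35 had an NRF2, 40 a BRG1 and 12 an ACTL6A peak, and the other 13 all had NRF2 and BRG1 peaks and 7 an ACTL6A peak.

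The ACTL6A peak shared by H2AC13 and H2BC13 was the highest of the H2A and H2B genes in that list (8 fragments against 0.599 expected, −log10 q 4.37, highest 32.8%). Away from the shared promoters, H3C2 had the highest BRG1 peak of the H3 genes (25 fragments against 2.20 expected, −log10 q 15.2, highest 18.8%). The highest NRF2 peak within 1 kb of an H3 gene, at H3C1, was the peak over H4C1, whose summit lay 1262 bp after the H3C1 start. In the same way the NRF2 peak assigned to H3C2 had its summit 1593 bp before that start. Counting summits in place of peak edges lowered the NRF2 count from 48 to 46 and left the BRG1 and ACTL6A counts at 53 and 19. The genes lost were H1-4 and H1-3, whose NRF2 summits lay 1192 and 1174 bp after the TSS, while H3C1 and H3C2 each had 2 NRF2 peaks and were kept.

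H1-4 and the neighbouring H2BC5, which lie in tandem, shared an NRF2 peak of 1495 bp, chr6:26156975-26158469, the highest of the H1 genes. Its summit lay 1192 bp after the H1-4 start, past the end of that gene, and before the H2BC5 start. It held 49 fragments against 6.65 expected, with a −log10 q of 21.9, in the highest 6.61% of the NRF2 list. The BRG1 peaks at these starts were separate and lower in their list, at 45.6% for H1-4 and 76.8% for H2BC5, and the ACTL6A list had none there. At H1-2 the NRF2 peak held 27 fragments against 3.60 expected (highest 17.6%) and the BRG1 peak, the highest of the H1 genes, held 11 against 1.07 (highest 44.6%). The ACTL6A peak of H1-2 held 3 fragments against 0.239 expected and was among the lowest of its list (98.3%). The summits at H1-2 lay well after the TSS, at 522 bp for ACTL6A, 960 bp for BRG1 and 812 bp for NRF2.

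The lowest peaks assigned to histone genes were likewise far down their lists. The NRF2 peak between H3C8 and H2BC10 lay at 91.8% with 13 fragments against 3.14 expected. The BRG1 peak at H3C15, one of the copied genes, lay at 84.7% with 16 fragments against 4.84 expected. H2BC7 and H2AC7 combined an NRF2 peak in the highest 13.8% with a BRG1 peak at 63.9%, whereas H2AC14 and H2BC14 combined a BRG1 peak in the highest 11.5% with an NRF2 peak at 66.6%. The order of the genes thus differed between the lists.

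Over the histone genes with a peak, the best NRF2 peak had a median rank at 41.1% of its list, close to the 41.8% over all genes with one. The median BRG1 rank was 30.8% (18.8% over all genes) and the median ACTL6A rank 35.6% (20.7% over all genes), so these peaks lay lower in their lists than those of other genes. A median of 23.5 fragments lay at the NRF2 summits (19 over all genes), 17 at the BRG1 summits (22) and 7 at the ACTL6A summits (10). The expected number of fragments is the background that the caller set at the summit, and its source is not known here. Its medians were 4.46 in NRF2 (3.00 over all genes), 1.81 in BRG1 (1.50 over all genes) and 0.464 in ACTL6A (0.599 over all genes). NRF2 peaks were also wide, with a median of 750 bp against 578 bp, while BRG1 peaks were narrow (339 bp against 510 bp). Background and depth in each library move with these values, and their part in the shares was not tested.

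BRG1 is the most widespread of the lists, so the other antibodies were set against it. Of the 53 histone genes with a BRG1 peak, 45 (84.9%) had an NRF2 peak, against 43.6% of all genes with a BRG1 peak. ACTL6A peaks were at 19 of the 53 (35.8%), against 58.0%. Of the 48 with an NRF2 peak, 18 (37.5%) had an ACTL6A peak, against 78.8% of all genes with an NRF2 peak. In the highest 10% of the BRG1 list, NRF2 was at 5 of 5 histone genes (73.6% of all genes) and ACTL6A at 3 of 5 (85.5%). Between 10% and 20%, NRF2 was at 12 of 12 (50.6%) and ACTL6A at 8 of 12, or 66.7% against 67.3%. Among genes whose best BRG1 peak fell between 20% and 40% of the list, NRF2 was at 14 of 17 histone genes and at 29.9% of all genes. Between 40% and 60% it was at 9 of 12 and 14.2%, and beyond 60% at 5 of 7 and 5.45%. ACTL6A was at 6 of 17, 2 of 12 and 0 of 7 histone genes in these ranges, against 45.7%, 28.7% and 16.5%. NRF2 was above the share of all genes in each of the 5 ranges. ACTL6A was below it in 4 ranges and close to it between 10% and 20%, and each range holds few histone genes.

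**Figure D5:**
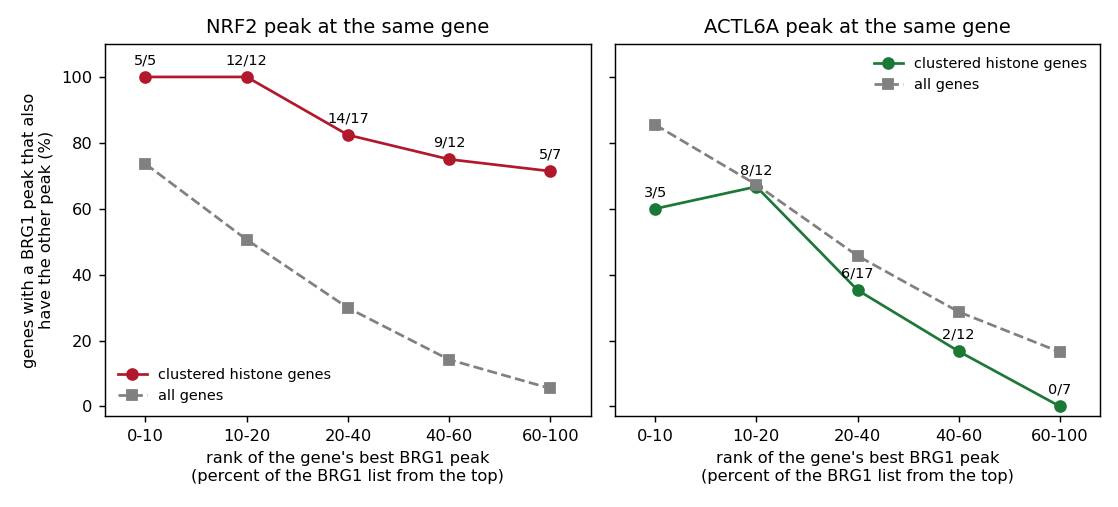
Share of genes with a BRG1 peak that also have an NRF2 (left) or ACTL6A (right) peak (y axis, percent) by the rank of their best BRG1 peak (x axis, percent of the BRG1 list from the top), for the clustered histone genes (solid, with counts) and all genes (dashed). The NRF2 line of the histone genes stays at 71.4% or more in every range while that of all genes goes from 73.6% to 5.45%, and the ACTL6A line of the histone genes goes from 60.0% to 0%.

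The promoters of these genes are poor in GC, and peaks of each antibody were rarer at other promoters of that kind. Among the 5930 other genes whose window had a GC content within the range of the histone genes, NRF2 peaks were at 15.7%, BRG1 peaks at 38.3% and ACTL6A peaks at 25.7%. Of the 698 other genes with a TATAA match, a GC content under 50% and a CCAAT match, NRF2 was at 5.59%, BRG1 at 16.3% and ACTL6A at 9.89%. The 45 histone genes with these same features had NRF2 at 32 (71.1%), BRG1 at 36 (80.0%) and ACTL6A at 9 (20.0%). The gap in NRF2 and BRG1 was wider beside promoters of like composition than beside all genes. The lists do not show which of these promoters are active, and the part of composition was not tested. For ACTL6A the order depended on the promoters chosen. Within the GC range it was at 29.7% of the histone genes and 25.7% of other genes. Under 50% GC these shares were 22.6% and 11.4%, and with a TATAA match 25.4% and 21.8%. Only with TATAA and CCAAT matches at any GC content was the order reversed, at 23.1% of 52 histone genes and 25.2% of 1321 other genes.

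The ARE core TGACNNNGC was matched in the promoter window of 8 histone genes (12.5%, against 14.0% of all genes). Only that window was searched, whereas NRF2 peaks were assigned within 1 kb of a start. Of the 48 NRF2 summits at histone genes, 22 (45.8%) lay within 250 bp of the TSS. The sequence under many summits was therefore not searched, and the numbers of peaks and matches cannot be compared. The 8 genes with a match were H1-1, H2AC11, H2AC15, H2AC18, H2AC19, H2BC11, H2BC15 and H4C8. All but H1-1 had peaks of all 3 antibodies. Without a match in that window, NRF2 was at 41 of 56 histone genes and ACTL6A at 12 of 56. The 8 genes hold head-to-head pairs and copies, and a match of this short pattern is a description of the letters and not of a bound site.

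Many of the peaks were shared by neighbours. The 64 genes had 18 distinct ACTL6A peaks, 52 BRG1 peaks and 37 NRF2 peaks within 1 kb, of which 6, 18 and 18 lay within 1 kb of 2 of the genes. There were 11 head-to-head pairs within 1 kb, 10 of them an H2A with an H2B gene 194 to 251 bp apart and the other H3C7 with H2BC9 at 979 bp. The best peak was the same for both genes of a pair in 10 of 11 pairs for BRG1, in 10 for NRF2 and in 4 for ACTL6A. At the pair H2BC21 and H2AC20 NRF2 had a shared peak and BRG1 none. Of the 22 genes in such pairs, 21 had an NRF2, 20 a BRG1 and 9 an ACTL6A peak, and of the other 42 genes these numbers were 27, 33 and 10. NRF2 was thus at 64.3% of the genes without such a partner among the 64 within 1 kb, also above the 28.1% of all genes. These 42 genes still include neighbours that share peaks, such as H3C8 and H2BC10, which lie head to head over 1 kb apart. H2BC3, H2AC18 and H2AC19 among them lie head to head with histone pseudogenes 276 to 291 bp away.

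NRF2 summits lay around the TSS with a median 67.5 bp before it (80 bp before it over all genes). These distances use a single start for each gene. The only NRF2 peak and the best BRG1 peak of H2BC6 lay at another start of that gene. Their summits were 11840 and 11828 bp before the start used here. BRG1 summits had a median 13 bp after the TSS (79 bp before it over all genes). ACTL6A summits had a median 161 bp after it (112 bp before it over all genes), and 7 of 19 lay upstream, against 70.1% over all genes. The genes are short, with a median transcript of 487 bases, so a peak can reach over the whole gene. Peaks overlapped the transcript in 15 of 64 genes for ACTL6A, 44 for BRG1 and 41 for NRF2. Of the 37 NRF2 peaks at the histone genes, 34 overlapped a BRG1 peak and 15 (40.5%) an ACTL6A peak, against 70.0% of NRF2 peaks at any TSS. Of the 18 ACTL6A peaks, 17 overlapped an NRF2 peak (94.4%, against 48.2%).

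The stretches of chromosome that hold the clusters also hold 22 other protein-coding genes. Among these, 7 had an NRF2 peak (31.8%), 12 a BRG1 peak (54.5%) and 9 an ACTL6A peak (40.9%), shares near those of all genes. BRG1 with NRF2 and no ACTL6A was at 1 of them, an unnamed gene (ENSG00000282988) that shares the start of H2AC7 and H2BC7. Of the 20 over 2 kb from any of the histone genes, 5 had an NRF2 peak and 0 this combination. No antibody had a peak at BTN3A1, BTN3A2 and BTN3A3, FCGR1A, OR2B2, OR2B6, POM121L2, PRSS16 and SV2A. Of the 56 NRF2 peaks in the windows, 37 lay at the histone genes.

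Histone genes outside the clusters were set beside them. Of 9 replication-independent variants, 3 had an NRF2 peak, 7 a BRG1 and 4 an ACTL6A peak, and H1-10 and MACROH2A2 had none. At H3-3B, which encodes H3.3, the BRG1 peak held 75 fragments and lay in the highest 1.51% of its list. Of 6 further genes (H2AC25, H2AJ, H2AX, H2BC26, H3-4 and H4C16), 2 had an NRF2, 5 a BRG1 and 5 an ACTL6A peak, and H3-4 had none. H2AC25 and H2BC26 had identical values in the BRG1 and ACTL6A lists and may share these peaks, so they are not independent. The testis genes H2AC1 and H2BC1, which lie just outside the chromosome 6 window, had 0 peaks in every list, as did H1-6 within it.

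Genes for the proteins that make and process histone mRNA were examined as a further list. All 13 had a BRG1 peak, 10 an ACTL6A and 8 an NRF2 peak. The best BRG1 peak of these was at HINFP, the regulator of H4 transcription (87 fragments, highest 0.490%), and NPAT followed (77 fragments, highest 0.783%). Of 8 histone chaperones, which carry histones to DNA, all 8 had a BRG1, 6 an ACTL6A and 3 an NRF2 peak, with the best BRG1 peak at ASF1B (66 fragments, highest 2.63%). In these groups, as over all genes, ACTL6A peaks outnumbered NRF2 peaks, the reverse of the order in the clusters.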

How the data were processed

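CUT&Tag libraries of SNU638 cells (1 each for ACTL6A, BRG1 and NRF2, 2 for IgG) were compared as peak lists. The authors sequenced 150-bp paired-end reads, kept uniquely mapped ones and called peaks at a q-value below 0.05. The submitters' processing notes name fastp 0.23.0, FastQC, BWA, MACS2, deepTools and HOMER 4.11, and the control given to the caller is not given in the sources used here. In the deposited lists, the score is the −log10 q times 10, cut to a whole number. The fold enrichment deposited by the authors is a ratio of fragments to expected fragments at the summit, with a pseudocount of 1. The deposited −log10 p and −log10 q are those of the caller.

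Transcription starts came from GENCODE release 44 (GRCh38). Peaks within 1 kb of a start were assigned to the gene, and the best by −log10 q was ranked within its own list, since q, fold and score are not comparable between lists. Fragments at each summit were solved for as the integer matching both fold and p-value (within 0.001 of −log10 p), which succeeded for 99.1% to 100% of peaks. Depth was read from these numbers. Assignment and recovery were tested on simulated data.

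With 1 library per antibody no test was made. The histone genes, comparison lists and motifs were chosen with earlier results of these data known, and the comparisons by BRG1 rank and by promoter composition after these values were seen. Values are given in full for the gene with the best peak of each list in each histone type, and genes with peaks of all antibodies or of none are named. Of the comparison lists, genes without a peak are named, or else the one with the best BRG1 peak. Other genes named were picked after their values were seen. The promoter sequence of the gene with the highest ACTL6A peak is not reported here. H2AW and H2BU1 were matched to H2AC25 and H2BC26 by RefSeq synonyms. Alternatives were the distance, summits, gene starts, a stricter −log10 q (5 or more), the 5000 highest peaks, and leaving out peaks shared with IgG or genes alike in sequence. Computations used pandas 2.3.3, SciPy 1.17.1 and NumPy 2.4.6 under Python 3.11.15, and plots matplotlib 3.10.9.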

Additional observations from a re-analysis of the deposited data

How the results depend on the processing

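Of 75 alternative values for 9 results, 68 stayed within 1.5 times the count or within the range taken as the same, and 7 moved. At a −log10 q of at least 5, 31 of the 64 histone genes kept an NRF2 peak, 3 an ACTL6A peak and 3 peaks of all antibodies, against 48, 19 and 18. The share of all genes then fell to 17.2% for NRF2 and 23.7% for ACTL6A, with 48.4% and 4.69% of the histone genes. With the highest 5000 peaks of each list, 5 kept a BRG1 peak, 1 an ACTL6A peak and 0 all antibodies, as a shorter list must lower them. Without the 13 genes alike in sequence to another, 12 ACTL6A genes were left among 51, fewer genes being counted. The IgG counts were 0 under each alternative run, and those that drop peaks shared with IgG could not move the histone genes, which share none. No paired analysis was possible because only 1 library was made with each antibody. A gene without a peak had none detectable at the depth of that library. The median ACTL6A summit at the histone genes held 7 fragments, and the part of depth in the counts was not tested.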

Other observations

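The windows also hold 10 histone pseudogenes by the same symbols, copies that have lost a full reading frame. BRG1 peaks lay within 1 kb of 8 of their starts, NRF2 peaks of 6 and ACTL6A peaks of 5, and IgG peaks of 0. Only 2 of them, H3C5P and H3C9P, lie over 2 kb from a start of the histone genes described above. H3C5P had no peak. H3C9P, an H3 pseudogene 36758 bp from the nearest of those starts, had peaks of all 3 antibodies. Its ACTL6A peak, chr6:26322190-26322468 (GRCh38), held 5 fragments against 0.239 expected, and its NRF2 peak, chr6:26322185-26322625, held 14 against 2.20 and ranked at 56.6% of its list. Of the 13 intact H3 genes, 0 had an ACTL6A peak within 1 kb, and at H3C1 and H3C7 such a peak lay just past that limit.

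Elsewhere in the windows, 14 NRF2 peaks lay at no protein-coding start. The highest of these, with 25 fragments against 2.31 expected and a rank in the highest 12.9%, overlapped the start of the long noncoding RNA gene GUSBP2, where ACTL6A also had a peak with 9 fragments against 0.644. Near PRSS16, a peptidase gene, ACTL6A had its highest peak of the windows outside the protein-coding starts (14 fragments against 0.808, highest 11.4%), 3821 bp from the start of that gene, and an NRF2 peak of 19 fragments against 3.19 lay 3788 bp from it.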
